A study of Mus musculus with 18 samples.

Results

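The 8 genes described here mark the primitive streak and the mesendoderm that leaves it: T, Mixl1, Eomes, Gsc, Evx1, Wnt3, Mesp1 and Lhx1. They were taken by gene symbol from the 45706 genes of the count table. RNA was sequenced from mouse induced pluripotent stem cells (iPSCs), either Hmga2 wt or Hmga2 KO, before (0 h) and 24 h after the start of conversion into epiblast-like cells (EpiLCs). Each of the 6 groups (wt, KO#1 and KO#2, at 0 h and 24 h) held 3 libraries labelled as biological replicates, and each KO line was labelled as 1 clone, so that what belongs to a clone and what belongs to the genotype cannot be told apart within a line. The wt libraries carry no clone label. A trait of the wt cells used here cannot be told apart from the genotype either. At 0 h the cells of all groups grew on inactivated fibroblast feeders with serum, leukaemia inhibitory factor and 2i, the inhibitors PD0325901 and CHIR-99021, and for induction they were plated on Geltrex with Activin A and bFGF. The question put to the data was whether any of these genes came on early, or in 1 line only.

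In the embryo, the primitive streak forms at the posterior side of the epiblast, under the action of Nodal, Bmp and Wnt signals. Wnt3 is the ligand that starts this process, the T-box factors T (Brachyury) and Eomes drive the formation of mesoderm and endoderm, and Mixl1, Evx1, Mesp1, Gsc and Lhx1 mark different positions along the streak and its first derivatives. EpiLCs resemble the epiblast before gastrulation, and CHIR-99021 activates canonical Wnt signalling by inhibiting GSK3.

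Of the 8 genes, 2, Eomes and Gsc, passed the filter on low counts. Of the other 6, Evx1 was above 3 counts in 12 of the 18 libraries and Wnt3 in 8, T in 2, Mixl1 in 1, and Mesp1 and Lhx1 in none. Eomes fell in wt cells between 0 h and 24 h, to 1.75 ± 0.11 CPM (CPM, the count of the gene relative to the TMM-scaled total of its library, SD, n = 3), whereas at 24 h it stood at 8.43 ± 3.24 CPM in KO#1 and at 9.62 ± 1.98 CPM in the libraries labelled KO#2. The highest mean level of Eomes was that of wt cells at 0 h, 11.4 ± 4.34 CPM. Gsc had its highest mean level, 2.85 ± 2.38 CPM, in KO#1 at 0 h and was called lower at 24 h in each line. It passed the filter only through its 0 h libraries. In wt cells and in the libraries labelled KO#2 the call was lost in some settings.

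Hmga2 RNA, as a check of the labels, was 13.3 to 22.3 CPM in wt cells at 0 h and 5.51 to 5.93 CPM at 24 h. The part of the feeders in the levels of 0 h was not tested. In wt cells Hmga2 was called lower at 24 h than at 0 h (log2 fold change -1.61, SE 0.62, adjusted p = 0.0362 in edgeR). In KO#1 it was lower in each library, 1.75 to 10.2 CPM at 0 h and 0.870 to 3.67 CPM at 24 h, although neither difference was called (adjusted p = 0.124 and 0.220, by the quasi-likelihood test of edgeR, adjusted after Benjamini and Hochberg as are all adjusted p-values here). In the libraries labelled KO#2 it was called lower at 0 h (log2 fold change -1.90, SE 0.62, adjusted p = 0.0230 in edgeR), but at 24 h it lay between 3.02 and 10.4 CPM and was not called against wt cells (log2 fold change -0.04, SE 0.60, adjusted p = 0.967 in edgeR). Library totals ran from 3466436 to 23872837 counts, and 16619 genes were tested. The 3 smallest libraries were wt at 0 h, replicate 1, and KO#1 at 0 h, replicates 1 and 2. A level of 3 counts, taken as the floor of detection, was worth 0.116 to 0.983 CPM depending on the library. At 24 h the share of counts from protein-coding genes was 54.4 ± 11.4% for wt cells, 51.6 ± 10.9% for KO#1 and, in those labelled KO#2, 83.1 ± 1.33% (SD, n = 3).

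The sequences upstream of Eomes, Gsc and Wnt3 are shown because the first 2 are the members that were tested and Wnt3 is the ligand of the set. They are the 250 bases before the gene start in RefSeq (GRCm38.p6), written 5′ to 3′ on the strand of the gene, with each CG dinucleotide in capitals. The Eomes window is chr9:118477939-118478188 on the plus strand, that of Gsc is chr12:104473237-104473486 on the minus strand and that of Wnt3 is chr11:103773925-103774174 on the plus strand. The gene coordinates given below come from another annotation (GENCODE). By those, the ends of the Gsc and Wnt3 windows nearest the gene, and most of the Mesp1 window, lie inside the gene.
Eomes: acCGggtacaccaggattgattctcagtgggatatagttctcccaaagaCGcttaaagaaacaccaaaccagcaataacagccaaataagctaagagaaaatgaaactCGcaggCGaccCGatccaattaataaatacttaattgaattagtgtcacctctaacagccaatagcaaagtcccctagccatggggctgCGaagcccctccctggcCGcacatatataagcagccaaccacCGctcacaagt
Gsc: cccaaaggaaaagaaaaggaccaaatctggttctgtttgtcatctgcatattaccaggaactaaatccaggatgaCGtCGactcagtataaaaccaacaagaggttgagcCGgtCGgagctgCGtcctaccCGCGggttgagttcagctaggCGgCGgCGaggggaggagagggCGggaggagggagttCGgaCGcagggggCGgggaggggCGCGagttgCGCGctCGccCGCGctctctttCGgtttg
Wnt3: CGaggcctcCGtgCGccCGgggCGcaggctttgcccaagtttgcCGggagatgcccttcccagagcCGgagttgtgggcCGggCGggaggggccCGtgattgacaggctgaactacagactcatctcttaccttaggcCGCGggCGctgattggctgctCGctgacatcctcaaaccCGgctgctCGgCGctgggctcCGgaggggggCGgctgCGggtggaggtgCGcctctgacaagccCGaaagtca

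A window was matched for 7 of the 8 genes, all but Mixl1. The Eomes window held 8 CG dinucleotides, more than 57.0% of the 32851 RefSeq windows of this length, whose median was 6. Gsc and Wnt3 had 22 each, more than 85.2% of windows. Lhx1 had the most, 26, and Mesp1 the fewest, 2, with T at 14 and Evx1 at 10. Motifs were searched on both strands, and a match is a description of these letters, not a binding site. The letters TATANA stood in the windows of Eomes and Gsc (22.6% of all windows hold them). The TCF/LEF letters CTTTGA stood in those of T and Mesp1 (13.8% of windows), and the SMAD letters CAGAC in those of Wnt3, Evx1, Mesp1 and Lhx1 (42.2% of windows). The T-box letters TCACACCT (1.12% of windows) and the FOXH1 letters TGTNNATT (10.9% of windows) were in none of the 7.

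**Figure D1:**
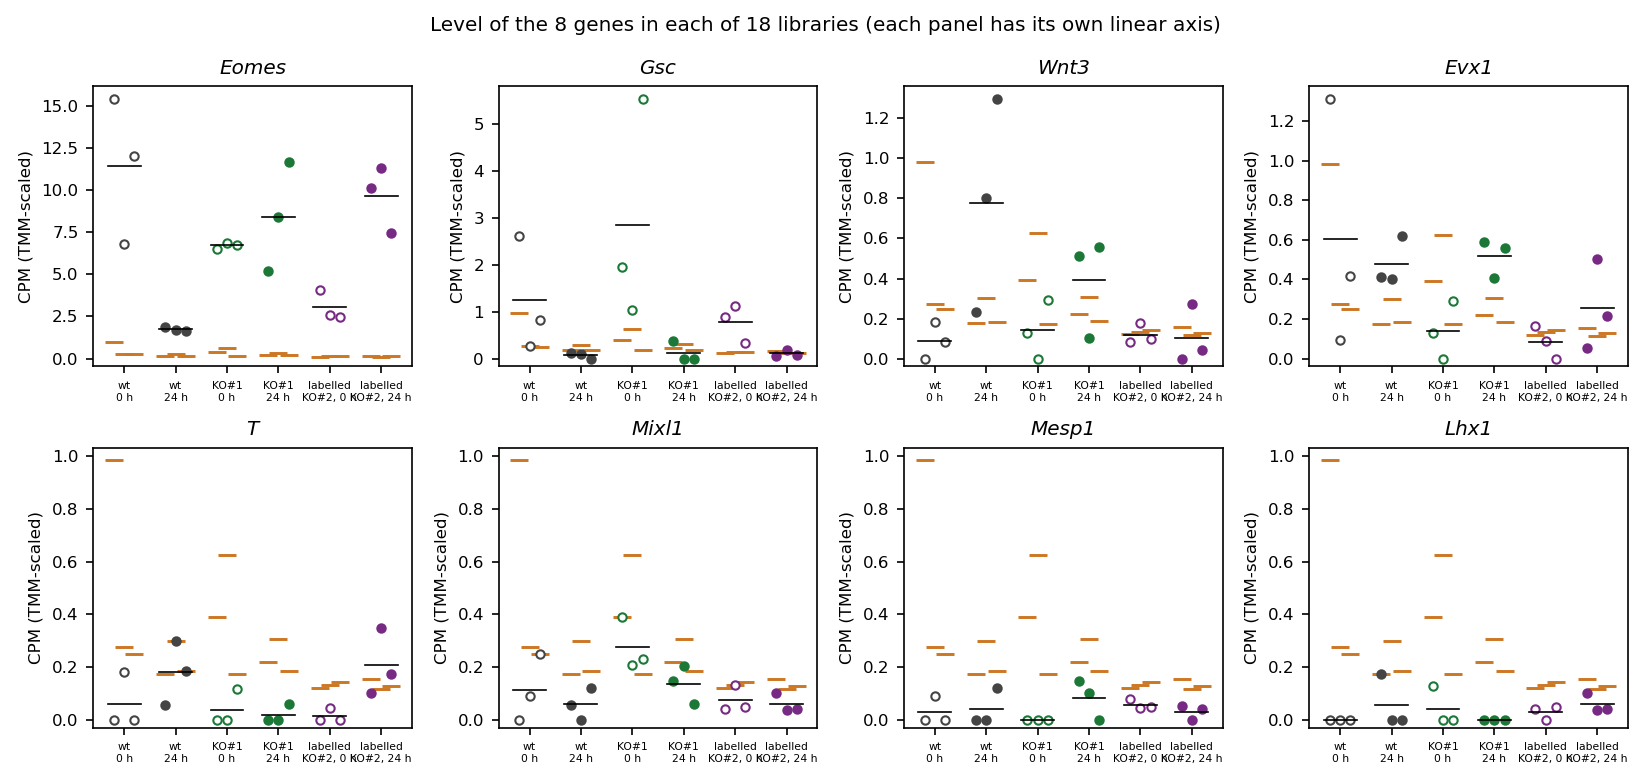
Level of each of the 8 genes in CPM on a linear axis of its own, with 1 point per library (open at 0 h, filled at 24 h), a black line at the group mean and an orange dash at the level of 3 counts in that library. Eomes lies above its dashes in all 18 libraries, whereas T, Mixl1, Mesp1 and Lhx1 lie at or below them nearly everywhere.

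The ligand Wnt3 (ENSMUSG00000000125, chromosome 11 of GRCm38, 103774150 to 103817957) had 0, 2 and 1 counts in wt cells at 0 h and 4, 8 and 21 counts at 24 h, the latter being 0.234, 0.801 and 1.30 CPM. Replicates 2 and 3 of wt at 24 h held the most Wnt3 of all 18 libraries, and no wt library of 0 h passed the floor of 3 counts. In KO#1 it had 1, 0 and 5 counts at 0 h and 7, 1 and 9 at 24 h. The libraries labelled KO#2 had 2, 4 and 2 Wnt3 counts at 0 h and 0, 7 and 1 at 24 h, a sum of 8 at each time. Pooled over the group, wt cells at 24 h had 0.763 CPM (exact 95% Poisson interval 0.525 to 1.07), KO#1 0.431 CPM (0.251 to 0.689) and the libraries labelled KO#2 0.118 CPM (0.0508 to 0.232). Such intervals cover counting error only, not the spread between cultures. The pooled level of wt cells at 24 h was 6.60 times that at 0 h, with a counting interval of 2.07 to 33.6, which is wide because it rests on 3 counts at 0 h. Wnt3 did not pass the filter on low counts. In a fit without that filter, the share of all genes called over time was 28.7% for wt cells, 23.5% for KO#1 and 15.8% for KO#2. Against wt cells it was 5.23% (KO#1) and 22% (KO#2) at 0 h, 6.87% and 22% at 24 h, and between the KO lines 15.9% and 21%. For the responses it was 1.06% and 5.9% against wt cells and 2.69% between the KO lines. In that fit 3 members were called in wt cells between 0 h and 24 h (28.7% of all genes were), Wnt3 among them as higher at 24 h (log2 fold change 2.70, SE 1.01, adjusted p = 0.0298 in edgeR). In the same fit Wnt3 was lower in the libraries labelled KO#2 than in wt cells at 24 h (log2 fold change -2.66, SE 0.84, adjusted p = 0.00986 in edgeR), where 22% of all genes were called, although the ranges overlap, with replicate 2 of KO#2 (0.271 CPM) above replicate 1 of wt (0.234 CPM). No difference was called in KO#1. The highest level of Wnt3 was thus found in the group in which Eomes was lowest.

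The T-box gene T (ENSMUSG00000062327, chromosome 17, 8434423 to 8442496), the classic marker of the whole streak, was not detectable above the floor in any wt or KO#1 library. Its counts were 0, 2 and 0 in wt cells at 0 h and 1, 3 and 3 at 24 h. KO#1 had 3 counts in all 6 libraries together. The libraries labelled KO#2 had 0, 1 and 0 counts at 0 h and 2, 9 and 4 at 24 h, so that 2 of them passed the floor. Pooled, these 3 libraries had 0.220 CPM at 24 h (0.123 to 0.364), beside 0.162 CPM in wt cells (0.0651 to 0.333), and these intervals overlap. Their pooled level at 24 h was 14.9 times that at 0 h (counting interval 2.30 to 629) and 8.70 times that of KO#1 at 24 h (1.34 to 366). Each ratio rests on 1 count in the lower group, and the intervals cover counting error only. In the fit without the filter T was not called between 0 h and 24 h in the libraries labelled KO#2 (log2 fold change 3.28, SE 1.26, adjusted p = 0.0563 in edgeR), nor against wt cells at 24 h (0.35, SE 1.01, adjusted p = 0.907 in edgeR).

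Eomes (ENSMUSG00000032446, chromosome 9, 118478212 to 118486132), the T-box factor needed for definitive endoderm and for the exit of mesoderm from the streak, was the member with the most counts. In wt cells at 0 h it had 47, 74 and 144 counts, or 15.4, 6.79 and 12.0 CPM. At 24 h it had 32, 17 and 27 counts, or 1.88, 1.70 and 1.67 CPM. Each wt library at 24 h was far below each one at 0 h, and their spread was the narrowest of the 24 h groups. This fall was a log2 fold change of -2.67 (SE 0.36, adjusted p = 1.95e-05 in edgeR), or 6.36-fold. In this comparison both tested members were called, against 50.7% of all genes. Of these, Gsc passed the filter only through its 0 h libraries, where it was high.

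In KO#1, Eomes was 6.51, 6.89 and 6.77 CPM at 0 h and 5.22, 8.38 and 11.7 CPM at 24 h. The ranges overlap, with 1 library below and the others above the level of 0 h. The log2 fold change of 0.33 (SE 0.33, adjusted p = 0.444 in edgeR) was not called, and only Gsc, which passed the filter through its 0 h libraries, was called in this comparison, in which 40.8% of all genes were. In the libraries labelled KO#2, Eomes was 4.06, 2.56 and 2.49 CPM at 0 h and 10.1, 11.3 and 7.42 CPM at 24 h. Here the ranges do not overlap and the direction was opposite to that of wt cells. The rise was a log2 fold change of 1.66 (SE 0.33, adjusted p = 0.00147 in edgeR), or 3.15-fold. Both tested members were called in this comparison, against 26% of all genes. Gsc passed the filter only through its 0 h libraries, and its call here was lost in 7 of the 18 fits that left out a library.

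The lines already differed before induction. At 0 h the libraries labelled KO#2 all lay below wt cells, with a log2 fold change of -1.87 (SE 0.34, adjusted p = 0.000708 in edgeR), or 3.67-fold. Eomes was the 1 member called there, among 38.1% of all genes. They were also lower than KO#1 at 0 h (log2 fold change -1.14, SE 0.34, adjusted p = 0.0201 in edgeR), again as the 1 member called, against 26.4% of all genes. That last call was lost when replicate 2 or replicate 3 of KO#2 at 0 h was left out (adjusted p = 0.0673 and 0.0751 in edgeR). It was also lost with library sizes alone (log2 fold change -0.82, adjusted p = 0.164 in edgeR). Without the 3 smallest libraries, which leaves 1 library of KO#1 at 0 h, the log2 fold change was -1.20. That setting was chosen after seeing the data. KO#1 and wt cells overlapped at 0 h, and the log2 fold change of -0.73 (SE 0.34) was not called (adjusted p = 0.233 in edgeR). No member was called in this comparison, where 6.67% of all genes were. Without adjustment, Eomes would have passed at 0.05 in edgeR and Gsc would not, whereas in the fit without the filter Gsc would have passed and Eomes would not. DESeq2 called neither.

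At 24 h the 3 libraries of KO#1 and the 3 labelled KO#2 all lay above the 3 wt libraries. Among those labelled KO#2, Hmga2 RNA was above each wt library in replicate 1 (10.4 CPM) and below each in replicates 2 and 3 (3.02 and 3.47 CPM). Against wt cells, Eomes was higher in KO#1 by a log2 fold change of 2.26 (SE 0.36, adjusted p = 0.000361 in edgeR), or 4.80-fold, and it was the 1 member called, against 9.84% of all genes. In the libraries labelled KO#2 it was higher by 2.45 (SE 0.35, adjusted p = 7.38e-05 in edgeR), or 5.47-fold, again as the 1 member called, against 37.3% of all genes. Both comparisons share the same 3 wt libraries and are not independent. Between the lines labelled KO no difference was called at 24 h, with a log2 fold change of 0.19 (SE 0.32, adjusted p = 0.677 in edgeR), and neither tested member was called there, at an unadjusted p under 0.05 or by DESeq2, against 35.4% of all genes in edgeR. In the fit without the filter, T and Wnt3 were under 0.05 before adjustment and not after it. Scaled by library size with no TMM factor, however, this difference was 1.22 (adjusted p = 0.0122 in edgeR), and that between the libraries labelled KO#2 and wt cells was 3.50, in a setting that moved the median of all genes from 0.14 to 1.21 in the former comparison and from 0.20 to 1.24 in the latter.

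The response itself, that is the change from 0 h to 24 h, was compared between lines with an interaction term. For Eomes the response of KO#1 exceeded that of wt cells by 3.00 on the log2 scale (SE 0.49, adjusted p = 0.0139 in edgeR), in a comparison in which 0.391% of all genes were called and Eomes was the 1 member. Without replicate 1 or replicate 2 of wt at 24 h this call was lost at a difference of 3.06 and 3.00 (adjusted p = 0.0538 and 0.0556 in edgeR). It was also lost with library sizes alone (2.85, adjusted p = 0.0731 in edgeR) and without the 3 smallest libraries (2.75, adjusted p = 0.0870 in edgeR), a setting chosen after seeing the data. The response of the libraries labelled KO#2 exceeded that of wt cells by 4.33 (SE 0.49, adjusted p = 0.000436 in edgeR), where 1.47% of all genes were called, and this call held in each of the 29 alternative settings. Between the lines labelled KO the response differed by 1.33 (SE 0.47, adjusted p = 0.206 in edgeR). No member was called there, against 0.241% of all genes, although the unadjusted p for Eomes was 0.0106, and DESeq2 called neither gene.

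**Figure D2:**
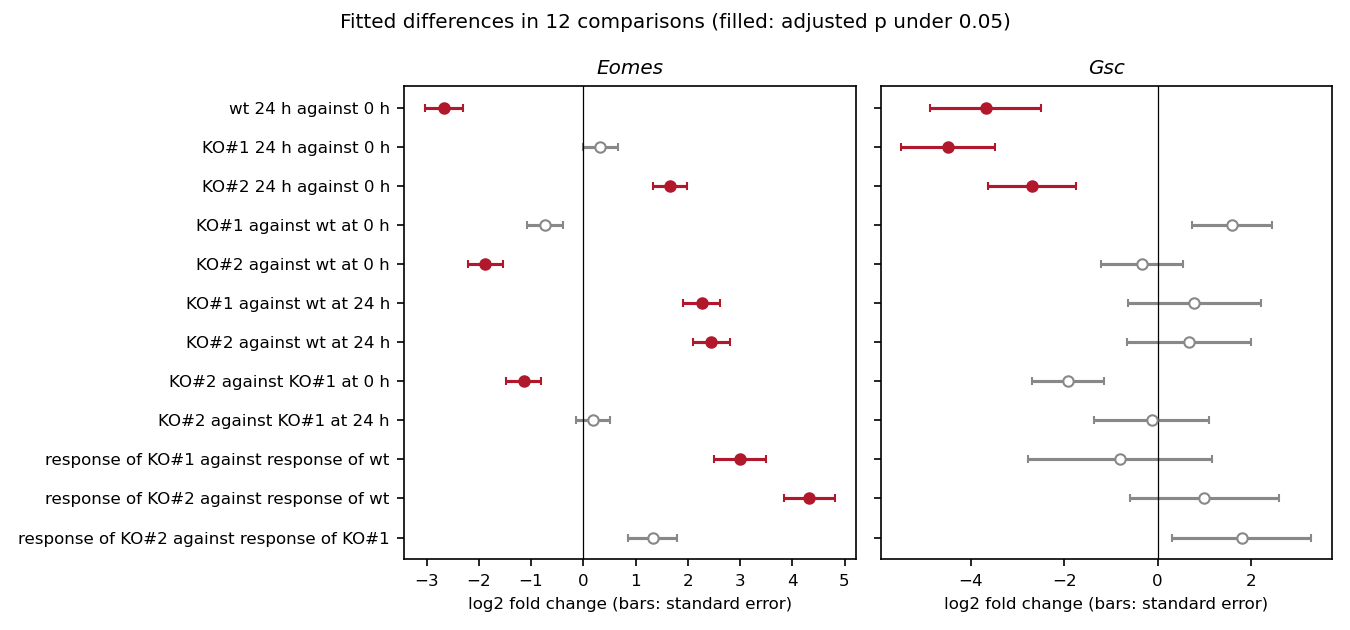
Log2 fold changes (points) with standard errors (bars) of Eomes and Gsc in the 12 comparisons, fitted by edgeR on all 18 libraries, with filled red points for an adjusted p under 0.05. Eomes falls in wt cells (-2.67) and rises in the libraries labelled KO#2 (1.66), whereas Gsc is negative in each of the 3 lines.

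By mean level of Eomes the groups ranked wt at 0 h (11.4 CPM), KO#2 at 24 h (9.62), KO#1 at 24 h (8.43), KO#1 at 0 h (6.72), KO#2 at 0 h (3.04) and wt at 24 h (1.75). Neighbours in this order overlapped down to KO#1 at 0 h. Below it, the ranges of KO#1 at 0 h, KO#2 at 0 h and wt at 24 h did not overlap. Per kilobase of exon, Eomes reached 2.74 CPM in wt cells at 0 h and 0.421 at 24 h. On the same scale Gsc reached 2.24 CPM per kilobase in KO#1 at 0 h, where Eomes was 1.62. No other member exceeded 0.253, the level of Wnt3 in wt cells at 24 h. Of the 14045 tested protein-coding genes, 49.4% had a lower mean level per kilobase than Eomes in wt cells at 0 h and 23.4% at 24 h. The 3′ end of Eomes overlaps the antisense gene Gm33460 by 574 bases, and whether counting used the strand of the reads is not given in the sources used here.

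The homeobox gene Mixl1 (ENSMUSG00000026497, chromosome 1, 180693043 to 180697034), which restrains T and promotes endoderm, had 0 to 4 counts in each library and 29 in all. Its highest pooled level was 0.270 CPM (0.117 to 0.532), in KO#1 at 0 h. These levels do not allow the groups to be ranked.

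Evx1 (ENSMUSG00000005503, chromosome 6, 52313498 to 52318378), a homeobox gene of the posterior streak, had 83 counts in all, the most of the 6 members that did not pass the filter. It had 4, 1 and 5 counts in wt cells at 0 h and 7, 4 and 10 at 24 h. KO#1 had 1, 0 and 5 counts at 0 h and 8, 4 and 9 at 24 h. The libraries labelled KO#2 had 4, 2 and 0 counts at 0 h and 1, 13 and 5 at 24 h. At 24 h all wt and KO#1 libraries were above the floor. Pooled CPM at 24 h was 0.486 in wt cells (0.301 to 0.742), 0.532 in KO#1 (0.329 to 0.813) and 0.279 in the libraries labelled KO#2 (0.168 to 0.436), with intervals that overlap. The pooled ratio of Evx1 at 24 h to 0 h was 1.26 in wt cells (counting interval 0.568 to 3.00). It was 2.62 in KO#1 (1.02 to 7.95) and 3.15 in the libraries labelled KO#2 (1.21 to 9.65). Evx1 was called in none of the 12 comparisons in the fit without the filter. Its 5′ end overlaps by 1335 bases the antisense gene Evx1os, which had 0 to 12 counts per library and was highest when pooled over the 24 h libraries labelled KO#2, at 0.294 CPM (0.180 to 0.454).

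Mesp1 (ENSMUSG00000030544, chromosome 7, 79792241 to 79793788), the basic helix-loop-helix factor of the earliest cardiac mesoderm, had 0 to 2 counts in each library, 12 in all, and passed the floor in none. In KO#1 at 0 h it had no count, which allows a level of up to 0.125 CPM.

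Gsc (ENSMUSG00000021095, chromosome 12, 104471209 to 104473330), the homeobox gene of the organizer and anterior streak, had 8, 3 and 10 counts in wt cells at 0 h, or 2.62, 0.275 and 0.833 CPM. At 24 h it had 2, 1 and 0 counts, all below the floor. The 2 groups do not overlap, and the log2 fold change of -3.68 (SE 1.19) was called (adjusted p = 0.0155 in edgeR). That call was lost without replicate 1 of wt at 0 h (adjusted p = 0.0632 in edgeR) or without replicate 3 of wt at 24 h (0.0528), and also without the 3 smallest libraries (0.0526). In KO#1, Gsc had 15, 5 and 95 counts at 0 h, or 1.95, 1.04 and 5.54 CPM, and 5, 0 and 0 counts at 24 h. Replicate 3 of KO#1 at 0 h held the most Gsc of all 18 libraries, and without it the fall, a log2 fold change of -4.49 (SE 1.00, adjusted p = 0.00209 in edgeR), was -3.51 (adjusted p = 0.0160 in edgeR). Without replicate 1 at 24 h the fitted value was -8.56, but the libraries then left of that group have no count, so that it depends on the prior count and is no bound. Replicate 3 of KO#1 at 0 h also had the highest summed level of 4 neural genes, 173 CPM against 16.9 and 19.0 CPM in the other libraries of its group, nearly all of it from the tubulin gene Tubb3, and the part of this in its Gsc level was not tested. In the libraries labelled KO#2, Gsc had 22, 25 and 7 counts at 0 h and 1, 5 and 2 at 24 h. The groups do not overlap, with a log2 fold change of -2.69 (SE 0.94, adjusted p = 0.0417 in edgeR). This call was lost in 7 of the 18 fits that left out a library. These were the fits without replicate 1, 2 or 3 of KO#2 at 24 h (adjusted p = 0.104, 0.0566 and 0.137 in edgeR), replicate 1 or 2 of KO#2 at 0 h (0.103 and 0.109), replicate 3 of wt at 0 h (0.0517) and replicate 2 of wt at 24 h (0.0501). With the replicate number as a block the call was lost too (0.0533). Gsc passed the filter only through its 0 h libraries, as no 24 h library held more than 5 counts. In fits of the compared groups alone it fell below the filter over time in wt cells and in those labelled KO#2. All 3 lines thus had less Gsc at 24 h, with pooled ratios of 24 h to 0 h of 0.0857 in wt cells (counting interval 0.0164 to 0.287), 0.0326 in KO#1 (0.0104 to 0.0783) and 0.148 in the libraries labelled KO#2 (0.0606 to 0.312).

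Between lines, Gsc was called at neither time. At 0 h its log2 fold change against wt cells was 1.59 in KO#1 (SE 0.85, adjusted p = 0.315 in edgeR; 0.61 without replicate 3 of KO#1 and 2.42 without replicate 1 of wt) and -0.33 for those labelled KO#2 (SE 0.87, adjusted p = 0.782 in edgeR). Between the libraries labelled KO#2 and KO#1 at 0 h it was -1.92 (SE 0.77, adjusted p = 0.0716 in edgeR), and the fit without the filter called it (-1.90, adjusted p = 0.0122 in edgeR), where 15.9% of all genes were called. The ranges of these groups overlap, and with a library left out the value ran from -2.30 to -0.95, the latter without replicate 3 of KO#1 at 0 h (adjusted p = 0.457 in edgeR). Without the 3 smallest libraries, where that same replicate is all that is left of KO#1 at 0 h, it was -2.85 (adjusted p = 0.0279 in edgeR), a value that rests on 1 library. The Gsc response was called against that of wt cells in neither KO#1 (-0.80, SE 1.96) nor the libraries labelled KO#2 (1.00, SE 1.59), a value that was 0.21 without replicate 1 of wt at 0 h and 1.72 without replicate 1 of wt at 24 h. Gsc adjoins the long noncoding gene Gm10000 on the opposite strand, which was not analysed here.

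Lhx1 (ENSMUSG00000018698, chromosome 11, 84518284 to 84525535), the LIM homeobox factor of the anterior mesendoderm, had 0 to 3 counts in each library and 10 in all. It had no count in wt cells at 0 h or in KO#1 at 24 h, which allows levels of up to 0.142 and 0.0934 CPM.

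**Figure D3:**
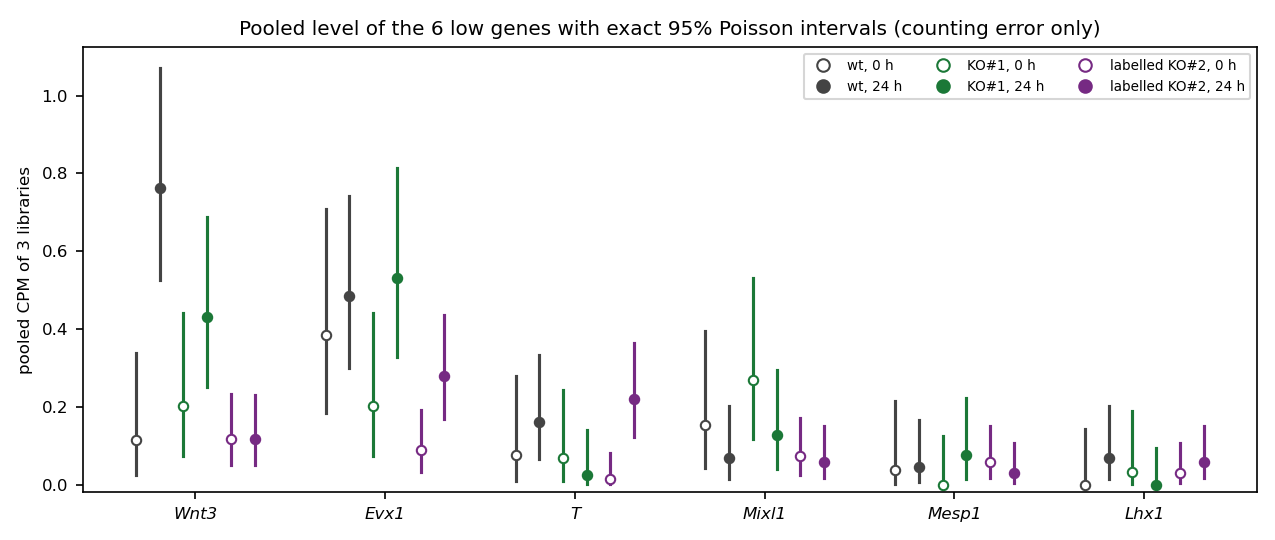
Pooled CPM of the 3 libraries of each group for the 6 members that did not pass the filter, with exact 95% Poisson intervals as vertical lines (counting error only). Wnt3 in wt cells at 24 h (0.763 CPM) lies above the interval of the libraries labelled KO#2 at 24 h, while for Evx1, Mixl1, Mesp1 and Lhx1 the intervals of the groups overlap at 24 h.

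Depth limits these statements. Of the 8 genes, 4 were above 3 counts in every library of at least 1 group, and 2 when each library was thinned to 3466436 counts. After thinning, Eomes was above the floor in 18 libraries, Gsc in 7, Evx1 in 3 and the remaining members in none.

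The other genes of the streak were read as lists, each described by its counts beside the median of all genes tested. Of 11 streak signals, 9 were tested. In wt cells, where 50.7% of all genes were called over time, 2 of them rose from 0 h to 24 h, Wnt8a, a Wnt ligand of the posterior epiblast (log2 fold change 3.72), and Foxh1, a partner of SMAD proteins (0.96), and 2 fell, Lefty2, an inhibitor of Nodal (-2.69), and Bmp4 (-1.53). Their median log2 fold change was -0.20, against 0.03 for all genes. Wnt8a also rose in KO#1 (2.13), as it did in those labelled KO#2 (4.52). Nodal itself was called in no line, with means of 56.0 to 82.7 CPM over the groups. At 24 h Bmp4, a signal of the extraembryonic ectoderm, was 1.00 ± 0.35 CPM in wt cells and was higher in KO#1 (12.1 ± 0.87 CPM, log2 fold change 3.54, SE 0.57, adjusted p = 0.000476 in edgeR). Lefty1, an inhibitor of Nodal, was the 1 signal called lower in KO#1 (16.4 against 58.4 CPM, log2 fold change -1.82, SE 0.52, adjusted p = 0.0298 in edgeR), in a comparison that called 9.84% of all genes. Bmp4 was also higher, where 37.3% of all genes were called, in the libraries labelled KO#2 (7.63 ± 5.15 CPM, log2 fold change 2.88, SE 0.56, adjusted p = 0.000778 in edgeR). In the latter Wnt3a also passed (log2 fold change 3.16, adjusted p = 0.00902 in edgeR), at 3 counts over the wt libraries and 49 over those labelled KO#2.

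Of 8 Wnt targets, all tested, 2 rose and 3 fell in wt cells, in a comparison that called 50.7% of all genes. Lef1 (3.47) and Cdx4 (no count at 0 h and 37 at 24 h) rose, and Cdx1 (-4.88), Sp5 (-5.07) and Axin2 (-1.61) fell. At 24 h Axin2, a negative regulator and general target of the pathway, was the 1 gene of this list higher than in wt cells in the libraries labelled KO#2 (log2 fold change 1.56, SE 0.42, adjusted p = 0.00807 in edgeR), where 37.3% of all genes were called. In KO#1, where 9.84% were, Axin2 was higher (1.45, SE 0.42, adjusted p = 0.0357 in edgeR) and Lef1 lower (-2.38, SE 0.60, adjusted p = 0.0144 in edgeR).

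Of 9 genes of nascent mesoderm, 6 were tested, and 4 were higher in the libraries labelled KO#2 than in wt cells at 24 h, where 37.3% of all genes were called in either direction (9.84% for KO#1). Their median log2 fold change was 2.43, against 0.20 for all genes. These 4 were Pdgfra (5.31, SE 0.60, adjusted p = 7.73e-06 in edgeR), Tbx3, also a naive pluripotency factor (3.08), Kdr (1.79) and Hand1, which had no count in wt cells. The other tested genes were not called, Mesp2 at 0.479 CPM against 1.18 CPM in wt cells (log2 fold change -1.29, SE 0.50, adjusted p = 0.0513 in edgeR), with ranges that do not overlap, and Snai1 at 0.570 against 0.836 CPM (-0.60). In KO#1 Pdgfra (2.52) and Tbx3 (2.16) were higher and no gene of the list was lower. Tbx6, Msgn1 and Foxf1, which mark paraxial and lateral mesoderm more narrowly, did not pass the filter. Of 8 genes of the anterior streak and endoderm, 7 were tested. Gata6 (4.33), Sox17 (2.01) and Gata4 (1.64) were higher in the libraries labelled KO#2 at 24 h, and Gata6 (2.13) in KO#1. In the libraries labelled KO#2 Hhex (-0.62), Chrd (-0.67), Fst (-0.54) and Otx2 (0.26) were not called, and the median of the 7 was 0.26, against 0.20 for all genes, so that the 3 calls stand beside a share of 37.3% over all genes. Foxa2, which marks definitive endoderm and node, did not pass the filter.

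Pdgfra, Gata6, Gata4 and Sox17 also stand in a list of 6 primitive endoderm markers, with Sox7 and Dab2. At 24 h all 6 were higher in the libraries labelled KO#2 than in wt cells and 2 of 6 were higher in KO#1, in comparisons that called 37.3% and 9.84% of all genes. Their summed level was 1.36 to 1.99 CPM in wt cells at 24 h, 2.98 to 7.79 CPM in KO#1 and 14.2 to 28.2 CPM in the libraries labelled KO#2, with none of the 6 at 0 in any group. At 0 h the sums were 4.86 to 6.23, 6.26 to 9.64 and 8.63 to 11.2 CPM. At 24 h the groups ranked alike by the median of these sums (1.70, 3.57 and 21.5 CPM) and by mean Eomes (1.75, 8.43 and 9.62 CPM), in the order wt cells, KO#1 and KO#2. The place of KO#1 below KO#2 by Eomes is not secured, as their ranges overlap and the difference was not called (log2 fold change 0.19, adjusted p = 0.677 in edgeR). At 0 h the libraries labelled KO#2 had the highest median sum, in a range that overlaps that of KO#1, and the least Eomes. At 24 h the KO#1 library with the most Eomes, replicate 3, had the lowest sum of its group. The part of these cells in the Eomes level was not tested.

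**Figure D4:**
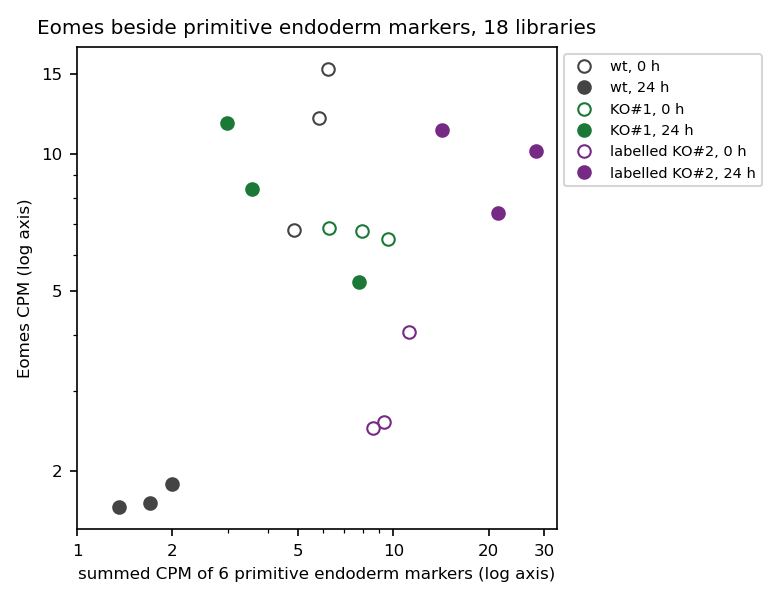
Eomes level (CPM, log axis) against the summed level of 6 primitive endoderm markers (CPM, log axis), with 1 point per library, open at 0 h and filled at 24 h. Wt libraries at 24 h lie lowest on both axes, and the libraries labelled KO#2 move up and to the right from 0 h to 24 h.

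Markers of other cell types were summed in the same way. The neural sum at 24 h was 25.4 to 29.8 CPM in wt cells, 43.2 to 56.8 CPM in KO#1, with no overlap, and 19.2 to 41.5 CPM in those labelled KO#2. The higher sum of KO#1 came from Tubb3 (46.2 against 21.2 CPM, not called), while Sox1, a factor of neural progenitors, was called lower there (1.82 against 4.47 CPM) and no gene of the list was called higher. The summed level of 8 fibroblast markers was 110 to 390 CPM in wt cells at 0 h and 19.0 to 34.5 CPM at 24 h, 183 to 514 and 38.7 to 51.8 CPM in KO#1, and 331 to 897 and 70.9 to 219 CPM in the libraries labelled KO#2, in which 6 of 8 were higher than in wt cells at 24 h (37.3% of all genes were called). In KO#1 at 24 h 1 of the 8 was higher and 1 lower (9.84% of all genes). Dcn was at 0 in wt cells at 0 h. The summed level of 6 trophoblast genes, a list chosen after seeing the data because trophoblast uses Eomes, was 35.8 to 60.3 CPM in wt cells at 0 h and 3.50 to 4.75 CPM at 24 h. At 0 h its median was 42.8 CPM in wt cells, 25.9 CPM in KO#1 (highest library 38.4 CPM) and 27.6 CPM in those labelled KO#2 (13.5 to 37.2 CPM), with ranges that overlap that of wt cells. At 24 h it was 3.98 to 5.60 CPM in KO#1 and 2.56 to 10.5 CPM in the libraries labelled KO#2. Elf5 and Hand1 were at 0 in wt cells at 0 h. The part of any of these cell types in the Eomes result was not tested, and in bulk RNA fewer cells with Eomes and less Eomes RNA per cell cannot be told apart.

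The markers of both cell types were detected. Over time 50.7%, 40.8% and 26% of all genes were called in wt cells, KO#1 and KO#2. All 6 EpiLC markers rose in each line from 0 h to 24 h, and of 8 naive markers 7 fell in wt cells and 6 in each of the lines labelled KO. At 24 h the summed naive level was 287 to 299 CPM in wt cells, 425 to 488 CPM in KO#1 and 287 to 611 CPM in the libraries labelled KO#2. Against wt cells, 4 of 8 naive markers were higher in KO#1, and the libraries labelled KO#2 had 5 of 8 higher, while 3 of 6 and 2 of 6 EpiLC markers were lower, in comparisons that called 9.84% and 37.3% of all genes. The part of this in the Eomes result was not tested.

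The genes whose profile was most like that of Eomes over the 18 libraries, by Pearson's r of log2 CPM, were Apobec3 (0.857), Axin2 (0.835) and Mical1 (0.830). Libraries share group, depth and culture, so these values describe the profiles and were not tested. Axin2 was 44.2, 12.5 and 21.4 CPM in wt cells at 0 h and 9.20, 7.81 and 7.90 CPM at 24 h. It was 21.0, 17.3 and 10.7 CPM in KO#1 at 0 h and 20.5, 19.6 and 27.9 CPM at 24 h. The libraries labelled KO#2 had Axin2 at 8.81, 5.75 and 12.3 CPM at 0 h and 39.9, 17.2 and 16.7 CPM at 24 h. As with Eomes, wt cells were lowest at 24 h and the libraries labelled KO#2 were low at 0 h and higher at 24 h. The Axin2 response of the libraries labelled KO#2 exceeded that of wt cells by 3.07 (SE 0.60, adjusted p = 0.0167 in edgeR), whereas that of KO#1 did so by 2.10 (SE 0.60) without being called (adjusted p = 0.160 in edgeR). For Gsc the closest profiles were those of Csf3r (0.906), Rcn1 (0.900) and Nfe2 (0.896).

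**Figure D5:**
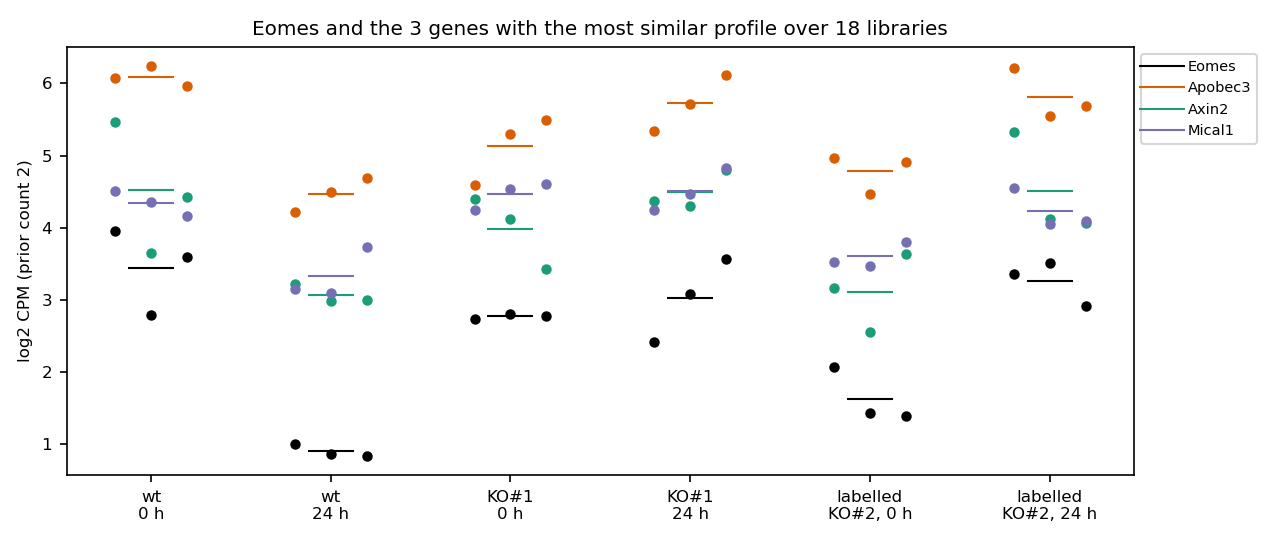
Log2 CPM (prior count 2) of Eomes, Apobec3, Axin2 and Mical1 in the 18 libraries, with 1 point per library and a dash at each group mean. All 4 genes have their lowest group mean in wt cells at 24 h and their next lowest in the libraries labelled KO#2 at 0 h.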

How the data were processed

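Total RNA of 18 samples (6 groups of 3) was converted into stranded total RNA libraries and sequenced as paired ends by the authors, who trimmed the reads, discarded ribosomal sequences and aligned the rest with STAR to GRCm38 in the nf-core rnaseq pipeline. The deposited values are whole-number counts per gene and library, neither normalized nor pooled. The annotation release and the strand setting of the counting are not given in the sources used here. Total RNA libraries keep noncoding transcripts, so a group's share of coding counts can move its CPM.

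The members and gene lists were chosen with earlier results of these data known. Members were read by symbol, and coordinates and exon lengths came from GENCODE M21 (45143 of 45706 gene IDs matched). Genes were filtered with filterByExpr (minimum count 10), scaled by TMM and fitted in 1 model over the 6 groups with edgeR 4.0.16 (quasi-likelihood test, R 4.3.3), with p-values adjusted over all 16619 genes by Benjamini-Hochberg and called under 0.05. CPM are TMM-scaled, and log2 CPM had a prior count of 2. The common dispersion was 0.0970. No pair of the 153 library pairs held identical values. Levels below the filter were given as counts and as pooled CPM with exact Poisson intervals at 95%. Named genes were the 8 members, Hmga2 as the targeted gene and Gapdh as a reference gene. Others were up to 4 called genes per list and comparison, and the 3 genes with the highest Pearson's r to Eomes and to Gsc. List genes named without a call were chosen after their values were seen. The gene list results use the same fit, with no test of the lists. Scripts were tested on simulated data. The alternatives were DESeq2 1.42.0 (the tool named in the submitters' processing notes), other size factors, filters and thresholds, coding genes alone, single pairs of groups, a replicate block, thinned counts and each library left out in turn.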

Additional observations from a re-analysis of the deposited data

Results flagged for a closer look

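The change of Eomes from 0 h to 24 h differed between lines by a direct test of the difference. In KO#1 the response exceeded that of wt cells by 3.00 on the log2 scale (SE 0.49, adjusted p = 0.0139 in edgeR), and in the libraries labelled KO#2 by 4.33 (SE 0.49, adjusted p = 0.000436 in edgeR). At 24 h, 3 of 3 libraries of KO#1 and 3 of 3 of those labelled KO#2 had more Eomes than each wt library. Of the latter, Hmga2 RNA was below each wt library in replicates 2 and 3 (3.02 and 3.47 CPM) and above each in replicate 1 (10.4 CPM). The first call was lost in some settings and the second in none of the 29. Both use the same wt libraries, whose level at 0 h ran from 6.79 to 15.4 CPM. Groups of 3 are too small for a search for single libraries that stand apart.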

How the results depend on the processing

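Of 691 values of Eomes and Gsc recomputed under the alternatives, 651 kept their direction and their side of the threshold, 23 lost and 3 gained a call, and 14 turned sign, none of them called. For Eomes, the calls in wt cells, in the libraries labelled KO#2, between either KO line and wt cells at 24 h, between the libraries labelled KO#2 and wt cells at 0 h and in the response of the former held in all 29 settings. The cause was not tested for the following changes unless stated.

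With library sizes alone the number of members called was 0 for KO#2 against KO#1 at 0 h (Eomes, adjusted p = 0.164 in edgeR), 1 at 24 h (Eomes), and 0 for the response of KO#1 against wt (Eomes, 0.0731). The same setting turned Eomes in KO#1 over time to -0.41, and Gsc to 0.13 between KO#2 and wt at 0 h and to 0.93 between KO#2 and KO#1 at 24 h. Without the filter, 2 members were called for KO#2 against wt at 24 h (Wnt3 and Eomes) and 2 for KO#2 against KO#1 at 0 h (Eomes and Gsc), and with a minimum count of 5, which tests 4 members, 2 for KO#2 against wt at 24 h (Wnt3 and Eomes) and 3 in wt over time (Wnt3, Eomes and Gsc). In fits of the groups compared alone, Gsc fell below the filter in 5 comparisons, which left 1 member called over time in wt and 1 in KO#2. With an adjusted p under 0.01, 1 member was called over time in wt and 1 in KO#2, and 0 for KO#2 against KO#1 at 0 h and for the response of KO#1. Without the 3 smallest libraries, chosen after seeing the data, 1 was called in wt over time, 2 for KO#2 against wt at 24 h, 0 for the response of KO#1 and 1 for KO#2 against KO#1 at 0 h (Gsc, in place of Eomes), Gsc was 0.47 between KO#2 and wt at 0 h, and KO#1 at 0 h had 1 library, assumed to vary like the other groups. Thinned to the smallest total, 2 members were detected, against 4.

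With a library left out in turn, the members called ranged from 1 to 2 in wt and in KO#2 over time and for KO#2 against wt at 0 h (Evx1 was the second, without replicate 2 of wt at 0 h), and from 0 to 1 for KO#2 against KO#1 at 0 h and the response of KO#1. Log2 fold changes that turned sign ranged as follows. Eomes ran from -0.00046 (without replicate 3 at 24 h) to 0.57 in KO#1 over time and from -0.10 to 0.48 between KO#2 and KO#1 at 24 h. Gsc ran from -0.93 to 0.46 between KO#2 and wt at 0 h, from -3.24 to 1.51 between KO#1 and wt at 24 h, from -0.81 to 3.91 between KO#2 and KO#1 at 24 h and from -4.84 to 0.18 for the response of KO#1. Of these, -3.24, 3.91 and -4.84 arose without replicate 1 of KO#1 at 24 h, which leaves that group with no Gsc count, so that they depend on the prior count.

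With the replicate number as a block, 1 member was called over time in KO#2 (Gsc, adjusted p = 0.0533 in edgeR, was lost), and Gsc was 0.055 between KO#2 and KO#1 at 24 h. Same-numbered libraries of different groups had deviations from their group means that correlated at 0.0531 on average (-0.255 to 0.587), against -0.0266 for other numbers. Of 45 same-numbered pairs, 16 were over 0.1, and 11 of 18 libraries correlated best with their own number. These values do not settle whether the numbers pair the libraries. The main fit has no block, and the fit with a block is given beside it.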

Other observations

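Tbx6, a T-box gene of paraxial mesoderm that did not pass the filter on low counts, had 24 counts over the libraries labelled KO#2 at 0 h (0.349 ± 0.104 CPM, SD, n = 3). At 0 h the wt libraries had 1 count (mean 0.031 CPM) and those of KO#1 had 2 (mean 0.039 CPM). At 24 h Tbx6 had 2, 5 and 2 counts in wt cells, KO#1 and the libraries labelled KO#2. It was singled out after its values were seen. The 4 genes of a list that marks 2-cell-like cells had a summed level of 42.8 to 142 CPM in the libraries labelled KO#2 at 0 h. At that time it was 6.17 to 12.1 CPM in wt cells and 3.13 to 11.8 CPM in KO#1. All 4 were called higher in both comparisons by edgeR, which called 38.1% and 26.4% of all genes there. No relation between these values was tested. Cdx2, shared by streak and trophoblast, was 1.01 ± 0.81 CPM in the libraries labelled KO#2 at 0 h (SD, n = 3, 70 counts in all). At 0 h it was 0.504 ± 0.496 CPM in KO#1 (21 counts) and 0.168 ± 0.139 CPM in wt cells (3 counts), with ranges that overlap. Its means at 24 h were 0.275 to 0.304 CPM. Cdx2 was not called between the libraries labelled KO#2 and wt cells at 0 h (log2 fold change 2.98, SE 1.27, adjusted p = 0.0698 in edgeR).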
